A study of Mus musculus with 2 samples.

Results

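The cells described here were picked by their transcripts and are called Hand1 and Msx2 cells below. A cell was taken when it held at least 1 unique molecular identifier (UMI, a counted mRNA molecule) of Hand1, at least 1 of Msx2 and at least 1 of Dkk1 or Rgs5. It also had no UMI of Hoxc4 or Hoxc5, and less than 1% of its UMIs came from 7 heart muscle genes (Tnnt2, Myl4, Actc1, Ttn, Myh6, Myh7 and Myl7). The search ran over cells with 1000 or more detected genes and no more than 10% mitochondrial UMIs. It found 299 of 16780 such cells, of which 164 of 7007 belonged to the library labelled Ctrl and 135 of 9773 to that labelled cKO. The working name of the population was somatic mesoderm and anterior heart field, and the marker check below shows how far each of these names held.

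The cells came from Swiss Webster mouse embryos at embryonic day 9.5, in which live GFP-positive cells of the pharyngeal apparatus and heart were sorted and profiled by droplet 3′-end sequencing. Embryos of the Ctrl library had the genotype Mesp1Cre;Rosa26-GFPflox/+, and those of the cKO library Mesp1Cre;Rosa26-GFPflox/+;Tbx1flox/flox. Both groups therefore carried the Mesp1Cre driver, which acts in early mesoderm, and the GFP reporter that marks the cells it acted on and their progeny. Each library was pooled from a pair of embryos and is the only library of its group among the data used. The study lists another library of each genotype at this stage, which was not among the data used. The methods list more somites for the cKO embryos than for the Ctrl embryos. Genotype, stage and library cannot be told apart, and no test between genotypes was possible. The intervals given are at 95% and reflect counting error alone.

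Somatic mesoderm is the outer layer of the lateral plate. It lines the body wall and, beside the heart, the wall of the pericardial cavity, and it is known for BMP signalling and for the homeobox genes Msx1 and Msx2 that BMP induces. The anterior heart field lies in the pharyngeal mesoderm and adds muscle to the outflow tract and right ventricle. Its cells are known for Isl1, Fgf10, Mef2c and Tbx1. Hand1 and Hand2 encode related basic helix-loop-helix factors of heart and lateral plate, Dkk1 is a secreted inhibitor of Wnt signalling, and Rgs5 dampens G-protein signalling and marks pericytes.

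Promoters are shown for 4 genes on which the results turn. Hand2 is among the leading genes of the cells, Isl1 splits them, Rgs5 was read by the rule, and Epha3, an Eph receptor, is low beside Isl1 and lower in the library labelled cKO. Each run holds 250 bases before to 50 after the annotated start, from RefSeq on GRCm38.p6, written 5′ to 3′ on the gene's strand, with matches on either strand to the searched letters in capitals. The letters searched for GATA factors were AGATAA, which read TTATCT on the other strand. For SMAD proteins the searches used a palindrome, GTCTAGAC, and a GC-rich motif spelled GGCGCC. T-box factors were searched with AGGTGT, the E-box of helix-loop-helix factors with CATCTG, and homeodomain factors with TAATTG. These 4 genes were picked after their matches were seen, and a match describes letters only. Coordinates are chr8:57320733-57321032 on the plus strand for Hand2, chr13:116309639-116309938 on the minus strand for Isl1, chr1:169655251-169655550 on the plus strand for Rgs5 and chr16:63864126-63864425 on the minus strand for Epha3.
Hand2: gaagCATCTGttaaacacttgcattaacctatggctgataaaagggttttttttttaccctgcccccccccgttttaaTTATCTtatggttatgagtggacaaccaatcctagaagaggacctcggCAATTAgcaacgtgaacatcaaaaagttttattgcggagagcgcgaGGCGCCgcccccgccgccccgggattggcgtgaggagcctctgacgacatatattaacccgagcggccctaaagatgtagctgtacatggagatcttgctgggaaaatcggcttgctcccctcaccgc
Isl1: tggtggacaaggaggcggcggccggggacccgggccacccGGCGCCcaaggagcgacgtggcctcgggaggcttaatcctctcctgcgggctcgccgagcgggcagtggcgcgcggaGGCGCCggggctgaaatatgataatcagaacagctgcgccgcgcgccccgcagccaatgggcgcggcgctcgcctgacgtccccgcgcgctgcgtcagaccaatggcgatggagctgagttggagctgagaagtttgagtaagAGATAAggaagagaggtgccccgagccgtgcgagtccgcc
Rgs5: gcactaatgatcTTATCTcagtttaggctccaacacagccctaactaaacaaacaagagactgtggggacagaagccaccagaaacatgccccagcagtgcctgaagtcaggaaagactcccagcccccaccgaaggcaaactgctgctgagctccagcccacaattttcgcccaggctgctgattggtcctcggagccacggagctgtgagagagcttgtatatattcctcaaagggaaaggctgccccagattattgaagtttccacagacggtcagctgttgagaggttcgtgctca
Epha3: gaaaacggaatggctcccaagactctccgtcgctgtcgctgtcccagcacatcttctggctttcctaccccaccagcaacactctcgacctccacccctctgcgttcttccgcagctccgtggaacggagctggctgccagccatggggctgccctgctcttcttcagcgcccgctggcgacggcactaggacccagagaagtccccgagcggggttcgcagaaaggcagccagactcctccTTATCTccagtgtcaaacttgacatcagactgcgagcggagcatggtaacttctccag

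Each of the 4 runs holds 1 match to the GATA letters, which begins at base 79 in Hand2, 261 in Isl1, 13 in Rgs5 and 243 in Epha3. Of the 5 markers of the label 4 had a promoter entry, and of these only Rgs5 held the GATA letters. The searched entries of Msx2, Dkk1, Bmp4, Msx1, Wnt6 and Bmp5 held none. The Hand2 run also holds 1 match each to the E-box, homeodomain and GC-rich SMAD letters, and the Isl1 run holds 2 GC-rich SMAD matches. Among 32851 mouse promoters of the same length, 11.2% held the GATA letters, 11.9% the GC-rich SMAD letters, 17.2% the E-box, 8.0% the homeodomain letters, 13.7% the T-box letters and 0.213% the SMAD palindrome. Of the 20 genes that lead the cells below, 13 had a promoter entry, some of them several, and 3 of their 20 entries held the GATA letters. Of the 12 named genes lower in the library labelled cKO, 7 had 8 entries, 4 with the GATA letters. Of the 12 named genes higher there, 8 had 11 entries, 1 with the GATA letters. With so few entries these counts are a description only.

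The rule took many cells at its lowest step. In the library labelled Ctrl 59 of the 164 cells held exactly 1 Hand1 UMI, 39 exactly 1 Msx2 UMI and 34 exactly 1 UMI of Dkk1 and Rgs5 together. In the library labelled cKO these were 60, 44 and 45 of the 135 cells. Medians were 2 Hand1 and 3 Msx2 UMIs per cell in both libraries. Dkk1 alone admitted 86 cells of the Ctrl library and 63 of the cKO library, Rgs5 alone 40 and 32, and both genes were found in 38 and 40. Just outside the rule lay 174 and 173 cells that lacked only Hand1, 99 and 146 that lacked only Msx2, 75 and 112 cells that lacked only Dkk1 and Rgs5, 55 and 37 that had only a Hoxc4 or Hoxc5 UMI against them, and 14 and 12 that had only too much muscle RNA. The share of UMIs from the 7 muscle genes reached 0.532% and 0.798% in the highest cells inside the rule and was 1.02% and 1.05% in the lowest outside it.

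The cells held medians of 18461 and 17520 UMIs in the Ctrl and cKO libraries, against 17308 and 14684 over all kept cells. Their summed totals were 3482753 and 2784433 UMIs, so that a count of 0 allows up to 3 counts, or 0.861 and 1.08 on the counts-per-million (CPM) scale. Mixed droplets were more frequent among them than elsewhere. Droplets with 2 or more UMIs of Xist and as many of Y-linked genes, which no single mouse cell should hold, made up 9.15% (5.21 to 14.6) of the cells in the Ctrl library and 15.6% (9.89 to 22.8) in the cKO library, against 3.33% and 3.79% of all other kept cells. Presumed doublets made up 14.6% and 18.5% of the cells, against 5.94% and 8.23% of all kept cells. The libraries had 15 barcodes in common, none of them from these cells. Because male and female cells of a pool come from different embryos, values in cells with Xist only (74 and 68) and with Y-linked UMIs only (64 and 28) are given below as a look inside each pool.

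Tbx1, the targeted gene, stood at 10.9 CPM (7.72 to 15.0, 38 UMIs in 24 cells) in the library labelled Ctrl and 15.1 CPM (10.9 to 20.4, 42 UMIs in 18 cells) in the library labelled cKO, for a log2 ratio of 0.47 (−0.20 to 1.14). Without presumed doublets the log2 ratio was −0.85. In all other kept cells Tbx1 stood at 27.4 and 44.6 CPM, higher in the library labelled cKO. The target thus does not separate the labels here. Counts of 3′ ends may lie outside the part that Cre removes, which was not tested. Other genes did differ between the libraries. Aplnr, the apelin receptor, stood at 30.04 and 0.993 CPM in cells picked by Isl1 and Tbx1 without Msx2, and at 2.30 and 2.15 CPM in the Hand1 and Msx2 cells, where it had only 8 and 6 UMIs. Tbx1 was seen in 3.68% and 5.93% of the cells once each was thinned to 5000 UMIs. Endothelial cells of the same libraries, picked by their own 5 genes at median depths of 18663 and 16278 UMIs, gave 4.16% and 4.03%. Cells rich in muscle RNA, at 15881 and 14741 UMIs, gave 0 of 65 (a share of up to 5.52%) and 0.599%. Tbx1 in the Hand1 and Msx2 cells was therefore not detectable above its share in endothelial cells.

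The markers of the label were checked first. Hand1, Msx2, Dkk1 and Rgs5 were read by the rule, so their levels are a description. Hand1 stood at 129.5 CPM (118 to 142) and 117 CPM (105 to 131) in the cells of the Ctrl and cKO libraries and at 11.5 and 11.2 CPM in all other kept cells. Msx2 stood at 179 and 139 CPM against 22.2 and 15.8, Dkk1 at 137 and 110 against 9.17 and 9.81, and Rgs5 at 95.04 and 53.5 against 14.8 and 9.21. Bmp4, a BMP ligand and the one marker outside the rule, stood at 129 CPM (118 to 142) and 91.2 CPM (80.3 to 103), against 58.6 and 43.3 CPM in the other cells, 2.21-fold and 2.11-fold higher. A Bmp4 UMI was found in 140 of 164 and 97 of 135 cells.

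**Figure D1:**
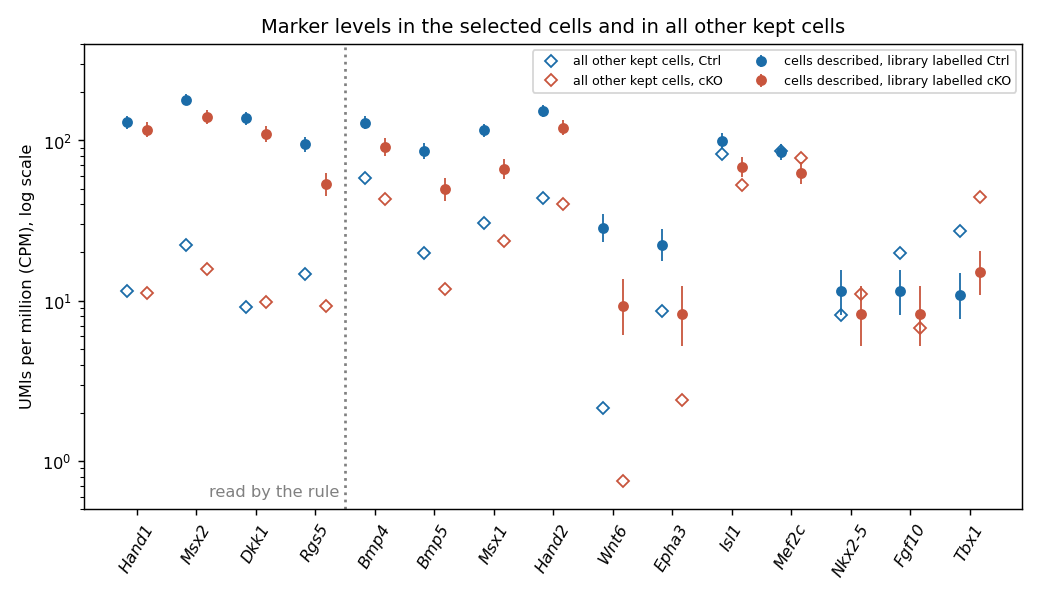
CPM of summed UMIs on a log axis in the Hand1 and Msx2 cells (filled points with 95% counting intervals) and in all other kept cells (open diamonds), with the library labelled Ctrl in blue and the library labelled cKO in red. Hand1, Msx2, Dkk1 and Rgs5, left of the dotted line, were read by the rule. Bmp4, Bmp5, Msx1, Hand2, Wnt6 and Epha3 lie above the other cells in both libraries, while Isl1, Mef2c and Nkx2-5 lie near them and Tbx1 below them.

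The somatic mesoderm and pericardial wall list has 10 genes, 2 of which (Hand1 and Msx2) were read by the rule. The other 8 summed to 813 and 644 CPM in the cells against 478 and 423 CPM elsewhere, 1.70-fold and 1.52-fold higher, and none was at 0. Of the 5 that could be measured, 3 were past 2-fold in both libraries (Hand2, Msx1 and Bmp4), against 1.37% of all genes. The list was chosen with earlier results of these data known and Bmp4 is a marker of the label, so this count is a description. The anterior heart field list of 10 genes summed to 283 and 196 CPM, below the 340 and 240 CPM of all other cells. Cells picked by Isl1 and Tbx1 without Msx2 (861 and 821 cells) served as a reference for that list. With the genes that picked them left out, its other 8 genes summed to 387 and 161 CPM in those cells and to 172 and 112 CPM in the Hand1 and Msx2 cells. Fgf10, an FGF ligand of the heart field, stood at 11.5 and 8.26 CPM in the Hand1 and Msx2 cells and at 45.5 and 4.41 CPM in the Isl1 and Tbx1 cells. Nkx2-5, a cardiac homeobox gene, had a UMI in 3.07% and 3.70% of thinned Hand1 and Msx2 cells, against 66.2% and 47.3% of cells rich in muscle RNA. The Isl1 and Tbx1 cells, at median depths of 19548 and 18774 UMIs, gave 2.91% and 4.64% for Nkx2-5. Isl1 had a UMI in 25.2% (18.7 to 32.5) and 22.2% (15.5 to 30.2) of thinned Hand1 and Msx2 cells, against 6.65% and 5.76% of endothelial cells and 12.3% and 7.78% of muscle-rich cells. Median depths before thinning are those given above, and without thinning Isl1 was found in 46.3% and 46.7%. Of the heart field genes, Isl1 was 1.21-fold and 1.30-fold above its level in other kept cells and Mef2c stood near that level. The heart field list of 10 genes was lower, at 127 and 130.4 CPM, in cells that met the rule except for Dkk1 and Rgs5, and at 145 and 146 CPM in those that met it except for Hoxc4 or Hoxc5, and higher in muscle-rich cells, at 702 and 592 CPM. In the 14 and 12 cells with only too much muscle RNA against them it was 1800 and 782 CPM. Somatic mesoderm genes outside the rule were thus raised in part. The heart field list lay below all other cells pooled and below the neighbours with too much muscle RNA. It lay above the neighbours without Dkk1 and Rgs5 and those with Hoxc4 or Hoxc5. The cells are called by the genes of the rule.

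Lists of other cell types were summed in the same way. The endothelial list of 7 genes summed to 90.7 and 95.5 CPM against 172 and 129 CPM elsewhere. Most of that sum came from Egfl7 (62.6 and 74.0 CPM) and Kdr (18.7 and 7.90 CPM), while Pecam1 had no UMI in either library and Cdh5 had 1 and 11. Tek stood at 6.03 and 2.87 CPM and Emcn at 2.30 and 5.39 CPM. The epithelial list of 6 genes was higher in the cells, at 33.6 and 15.1 CPM against 8.91 and 4.602 CPM. Most of it was Wnt6 (28.4 and 9.34 CPM), with Epcam at 4.02 and 2.87 CPM and Cdh1 at 0 in both libraries. The neural crest list of 7 genes stood at 10.6 and 6.82 CPM against 10.1 and 7.17 CPM, with Foxd3 at 0. The allantois list of 4 genes was higher in the cells, at 72.1 and 47.0 CPM against 30.5 and 32.9 CPM. The paraxial mesoderm list of 7 genes stood at 23.5 and 59.6 CPM against 137 and 124 CPM elsewhere, and the cranial mesenchyme list of 6 genes at 99.1 and 142 CPM against 151 and 167 CPM, both higher in the library labelled cKO within the Hand1 and Msx2 cells. The part of these cell types in the values below was not tested. The list of 12 cardiomyocyte genes summed to 628 and 718 CPM, under the ceiling that the rule sets on 7 of them. Globin RNA differed between the libraries. The erythroid list of 6 genes summed to 0.574 CPM in the library labelled Ctrl, with 4 genes at 0, and to 172 CPM in the library labelled cKO, with 1 at 0, against 10.1 and 10704 CPM in all other cells. Hbb-y, an embryonic beta-globin, had 0 and 228 UMIs. Haemoglobin genes were left out of every count of genes below.

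Of 5336 genes outside the rule that could be measured, 73 were at least 2-fold higher in the Hand1 and Msx2 cells than in all other kept cells in both libraries (1.37%) and 41 at least 2-fold lower (0.768%). The cells were chosen on their transcripts, so these values describe them and carry no test. The 20 genes named by size include 2 transcription factors of the same families as the rule's genes. Hand2 stood at 152 and 120 CPM, 3.47-fold and 3.0-fold above the other cells, and Msx1 at 115 and 66.4 CPM, 3.78-fold and 2.83-fold above them. Mab21l2, a gene of body wall and eye development, stood at 136 and 80.4 CPM, with log2 ratios to the other cells of 3.02 and 2.33. Ppp2r2b, a regulatory subunit of a protein phosphatase, had log2 ratios of 2.74 and 3.03, and Slc2a3, a glucose transporter, 2.78 and 2.21.

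The same named set held genes of epithelium-like layers and of matrix. Krt8 stood at 177 and 254 CPM and Krt18 at 198 and 278 CPM. These keratins of simple epithelia were found in 123 and 128 of the 164 cells labelled Ctrl and in 112 and 115 of the 135 labelled cKO, and were about 4-fold above the other cells, at log2 ratios of 2.09 and 1.99 for Krt8 and 1.97 and 1.83 for Krt18. Col1a1, a fibrillar collagen, stood at 186 and 134 CPM, with log2 ratios of 1.37 and 1.38. Nkd1, a feedback inhibitor of Wnt signalling, stood at 57.1 and 60.7 CPM, with log2 ratios of 1.43 and 1.39. The others were Ahnak, Ccdc80, Rnd2, Crispld1, Mpped2, 3632451O06Rik, Tmem108, Arhgap29, Plac8, Klf6 and Pls3, with log2 ratios between 1.27 and 2.61.

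Set against the 75 and 112 cells that met the rule except for Dkk1 and Rgs5, 5 of 5317 genes were at least 2-fold higher (0.094%) and 16 at least 2-fold lower (0.301%) in the Hand1 and Msx2 cells in both libraries. Those neighbours held Hand1 at 139 and 120 CPM, Bmp4 at 133 and 77.1 CPM and Msx1 at 133 and 92.3 CPM, against 129.5 and 117, 129 and 91.2, and 115 and 66.4 CPM in the cells themselves. Isl1 was lower in them, at 22.4 and 38.5 CPM against 99.6 and 68.6 CPM. The neighbours with Hoxc4 or Hoxc5 (55 and 37 cells) held less Isl1 and Rgs5, at 27.4 and 21.3 CPM and at 12.1 and 18.9 CPM, and more Hoxa5, at 51.0 and 50.5 CPM against 7.47 and 6.82 CPM.

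The Hand1 and Msx2 cells were then divided by Isl1, the LIM-homeobox factor of the heart field, as a description with no test. Each cell was thinned to 5000 UMIs, which left 163 and 135 cells, of which 41 and 30 kept an Isl1 UMI. Mef2c, a MADS-box factor of muscle, stood at 215 CPM in cells with Isl1 and 34.4 CPM in cells without in the library labelled Ctrl, and at 167 and 38.1 CPM in the library labelled cKO. The log2 ratios were 2.64 (1.86 to 3.46) and 2.13 (1.22 to 3.05). Acta2, the smooth muscle actin, stood at 639 against 175 CPM and at 1087 against 230 CPM. In the thinned cells Acta2 was found in 18 of 41 cells with Isl1 and 35 of 122 without in the library labelled Ctrl, and in 17 of 30 and 41 of 105 in the library labelled cKO. Without thinning these were 50 of 76 and 48 of 88, and 39 of 63 and 46 of 72. Ttn, the sarcomere protein titin, stood at 293 against 54.1 CPM and at 167 against 61.0 CPM, although the rule kept its total low. The summed levels of these 3 genes were higher beside Isl1 in both libraries. Presumed doublets made up 9 of the 41 and 5 of the 30 cells with Isl1 and 15 of 122 and 20 of 105 without. In the unthinned cells they were 17 of 76 and 14 of 63 with Isl1 and 7 of 88 and 11 of 72 without. With them removed from the thinned cells, the log2 ratios of Mef2c were 3.0 (2.10 to 3.98) and 3.18 (2.02 to 4.47) and those of Acta2 2.08 and 2.67.

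Other genes were higher in the cells without Isl1. Twist1, a factor of loose mesenchyme, stood at 593 CPM without and 229 CPM with Isl1 in the library labelled Ctrl, and at 533 and 360 CPM in the library labelled cKO. Sfrp1, a secreted Wnt inhibitor, had log2 ratios of cells with to cells without Isl1 of −1.48 (−2.23 to −0.81) and −1.19 (−2.19 to −0.32), and Wnt2, a Wnt ligand, −1.20 (−2.21 to −0.32) and −1.51 (−2.88 to −0.40). Gas1, a Hedgehog co-receptor, had −1.55 and −1.17, and Alcam, an adhesion molecule, −2.26 (−3.61 to −1.17) and −1.47 (−3.82 to 0.22). Epha3 had no UMI in the 41 and 30 thinned cells with Isl1 and was found in 17 of 122 and 4 of 105 without it. A count of 0 allows a share of up to 8.60% and 11.6% there (upper Clopper-Pearson limits). Without thinning Epha3 was found in 14 of 76 and 4 of 63 cells with Isl1 and in 33 of 88 and 18 of 72 without.

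For several genes the interval crossed 0. Hand1 had log2 ratios of 0.14 (−0.51 to 0.74) and 0.29 (−0.50 to 1.03), Hand2 0.30 (−0.27 to 0.84) and 0.07 (−0.71 to 0.79), and Bmp4 −0.01 (−0.73 to 0.66) and 0.61 (−0.23 to 1.39), so differences up to these bounds were not detectable at this depth. Dkk1 stood at 97.6 CPM with against 169 CPM without Isl1 and at 93.3 against 152 CPM, and Rgs5 at 249 against 59.0 CPM and at 153 against 43.8 CPM. The rule asks for Dkk1 or Rgs5, which by itself sets these 2 genes against each other, so nothing is read from either. Without thinning, Mef2c was found in 43 of 76 cells with Isl1 and 10 of 88 without in the library labelled Ctrl, and in 34 of 63 and 16 of 72 in the library labelled cKO. Wnt2 was found in 23 of 76 and 68 of 88, and in 27 of 63 and 50 of 72.

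**Figure D2:**
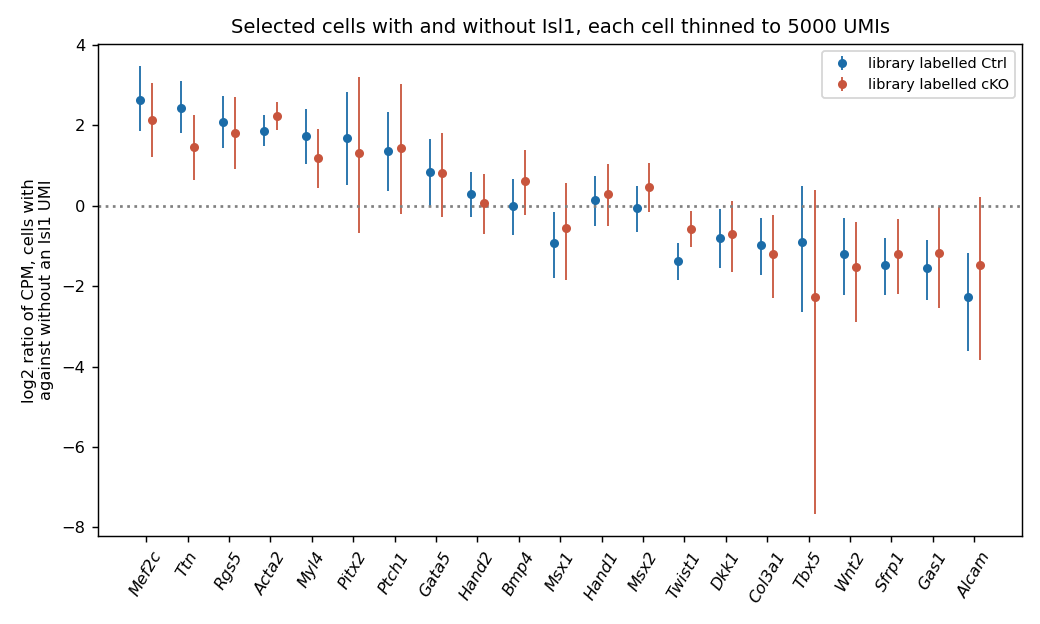
Log2 ratio of CPM in cells with an Isl1 UMI to cells without, after thinning each cell to 5000 UMIs, for the library labelled Ctrl (blue) and the library labelled cKO (red), with 95% counting intervals. Mef2c, Ttn, Rgs5, Acta2 and Myl4 lie above 0 in both libraries and Twist1, Wnt2, Sfrp1 and Gas1 below it (Rgs5, Ttn and Myl4 were read by the rule), while Hand1, Hand2 and Bmp4 have intervals that cross 0. Myl4 was found in 13 of 41 and 5 of 30 thinned cells with Isl1, and in 24 of 122 and 16 of 105 without.

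The Hand1 and Msx2 cells made up 2.34% of kept cells in the library labelled Ctrl (2.0 to 2.72) and 1.38% in the other (1.16 to 1.63), which differ by −0.959 percentage points (−1.396 to −0.545). Cells of both sexes gave this direction, at −0.849 points in cells with Xist only and −1.377 in cells with Y-linked UMIs only. Cells with Hand1 and Msx2, whatever else they held, made up 5.85% and 3.96%. Cells with any Hand1 UMI made up 10.9% and 9.99%, and cells with any Dkk1 UMI 8.86% in both, while cells with any Msx2 UMI made up 17.5% and 13.1% and cells with any Rgs5 UMI 13.4% and 9.89%. The neighbours without Dkk1 and Rgs5 made up 1.07% and 1.15%, a difference of 0.0757 points (−0.255 to 0.392). Kept cells labelled cKO were also shallower. When the rule was applied to cells thinned to 5000 UMIs, the shares were 0.505% and 0.269%, a difference of −0.236 points. The share in the library labelled Ctrl was 1.88 times that in the other there, and 1.69 times without thinning.

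**Figure D3:**
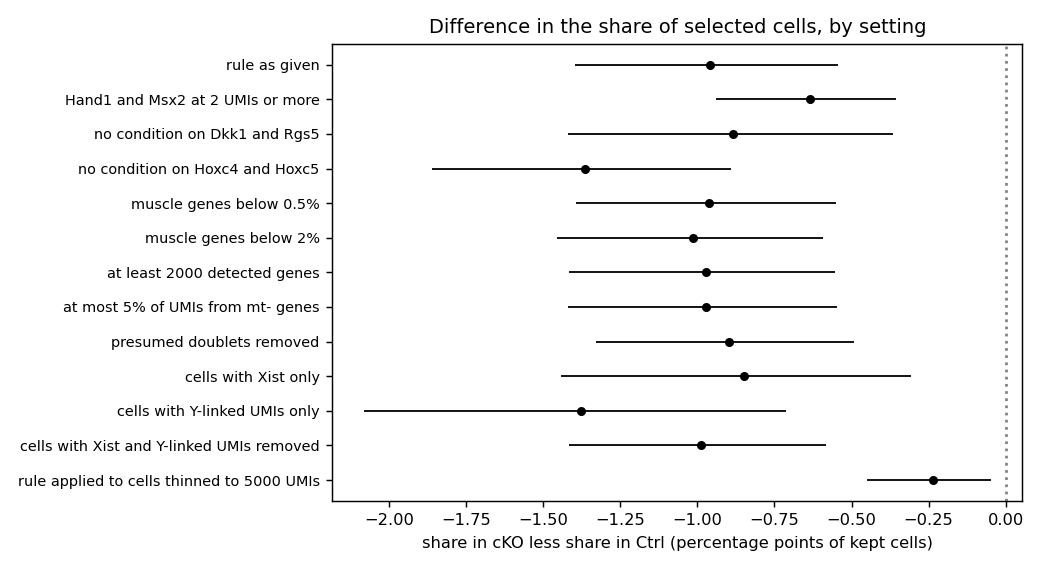
Share of kept cells that met the rule, cKO less Ctrl, in percentage points with 95% counting intervals, for the rule as given and for 12 other settings. Every setting lies below 0, from −1.377 points in cells with Y-linked UMIs only to −0.236 points in thinned cells, where fewer cells of either library met the rule.

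Between the libraries, 5831 genes could be measured in the Hand1 and Msx2 cells (at least 20 CPM in a library and 30 UMIs in both together). Of these 21 were at least 2-fold higher in the library labelled cKO (0.36%) and 100 at least 2-fold lower (1.71%). In all other kept cells 21 of 5676 genes were higher (0.37%) and 27 lower (0.476%). The numbers of UMIs differ greatly between these sets of cells, and smaller sums pass a 2-fold difference more easily by counting error. The counting interval lay wholly past 2-fold for 12 genes higher (0.206%) and 17 lower (0.292%). The same direction in cells with Xist only and with Y-linked UMIs only was found for 17 of the genes higher (0.292% of those measured) and 97 of those lower (1.66%). These cells are part of the sums that put the genes past 2-fold, so that choice favours a shared direction. The median log2 ratio over all genes measured was −0.07, and scaling by the median ratio gave 30 genes higher and 64 lower, in place of 21 and 100.

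The named genes higher in the library labelled cKO were led by Ubb, which encodes ubiquitin, at 107 and 940 CPM, for a log2 ratio of 3.13 (2.98 to 3.29). In cells with Xist only it was 3.66 (3.42 to 3.92) and in cells with Y-linked UMIs only 1.71 (1.36 to 2.05). Ubb had a log2 ratio of 3.14 in all other kept cells, and Lamtor3, a lysosomal signalling scaffold, 2.47 in the Hand1 and Msx2 cells and 2.31 in the others. The histone genes Hist1h2ap (1.71) and Hist2h2ac (2.14), and Phgdh, the first enzyme of serine synthesis (1.72), also had ratios of 1.5, 1.72 and 1.41 elsewhere. In cells with Y-linked UMIs only Hist1h2ap had 0.98 (0.48 to 1.48) and Phgdh 1.09 (0.52 to 1.67), and in cells with Xist only they had 1.5 and 2.05. Ubiquitin and histone genes have near-identical copies, so their counts are uncertain. Il11ra1, a chain of the interleukin 11 receptor, had 1.31 and 1.80, but the sexes were far apart, at 4.92 (3.32 to 7.23) in cells with Xist only and 0.38 (−0.30 to 1.03) in cells with Y-linked UMIs only. Raet1e, a ligand of a natural killer cell receptor, stood at 6.89 and 23.0 CPM, for a log2 ratio of 1.74 (1.04 to 2.48), with −0.03 in the other cells. Its ratio was 3.08 (2.05 to 4.28) without presumed doublets, 2.88 in cells with Xist only and 2.16 in cells with Y-linked UMIs only. Armc10, Akr1e1, Cpa1, Tbcb and 3010026O09Rik had ratios between 1.04 and 1.76, and between 0.39 and 1.61 in the other cells. In cells with Xist only Armc10 had 0.86 (0.03 to 1.73), Akr1e1 0.89 (−0.01 to 1.83) and Cpa1 0.26 (−1.16 to 1.68). In cells with Y-linked UMIs only 3010026O09Rik had 0.96 (−0.32 to 2.21) and Tbcb 0.74 (0.36 to 1.13).

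Among the named genes lower in the library labelled cKO, single cells decided some values. Pf4, a platelet chemokine, had 870 UMIs in the library labelled Ctrl and 1 in the library labelled cKO, but 863 of the 870 lay in 1 cell. Thbs1, which encodes thrombospondin, had 78 and 7 UMIs, 46 of them in 1 cell of the library labelled Ctrl, and its log2 ratio of −3.16 (−4.52 to −2.04) was −2.11 without the top cell of each library. It was −1.16 (−2.63 to 0.11) without cells with reads of both sexes, −1.23 (−3.06 to 0.33) in cells with Xist only and −1.5 (−6.99 to 1.46) in cells with Y-linked UMIs only, all with intervals that cross 0. Tpm3-rs7, a copy of a tropomyosin gene, stood at 167 and 6.46 CPM, for a log2 ratio of −4.69, and had −4.58 in all other kept cells. Its reads may be shared with the parent gene.

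The remaining named genes on this side were spread over many cells. Slc2a3 stood at 183 and 54.9 CPM and was found in 120 of 164 and 80 of 135 cells, with a log2 ratio of −1.73 (−2.0 to −1.48) against −1.16 in the other cells. It was −2.08 (−2.50 to −1.67) in cells with Xist only and −0.77 (−1.24 to −0.33), not past 2-fold, in cells with Y-linked UMIs only. Lrrn4, a leucine-rich repeat protein of mesothelium, stood at 50.3 and 15.4 CPM, with −1.70 (−2.22 to −1.21) against −0.54, and −0.72 (−1.72 to 0.18) in cells with Y-linked UMIs only. Fzd7, a Wnt receptor, stood at 85.0 and 28.4 CPM, with −1.58 (−1.96 to −1.22) against −1.12, and was found in 122 and 58 cells. Vegfa, a growth factor of blood vessels, stood at 57.4 and 20.1 CPM, with −1.51 against −1.41. Pdpn, a glycoprotein of mesothelium and lymphatic cells, had 76 and 16 UMIs, for a log2 ratio of −1.93 (−2.80 to −1.13), and −1.07 (−2.81 to 0.33) in cells with Y-linked UMIs only. Kirrel, Pbld2, 3632451O06Rik and Sdpr had ratios between −1.89 and −1.45 in the Hand1 and Msx2 cells and between −1.12 and −0.56 in the others. Whether any of these ratios differs between the cells and the others was not tested.

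**Figure D4:**
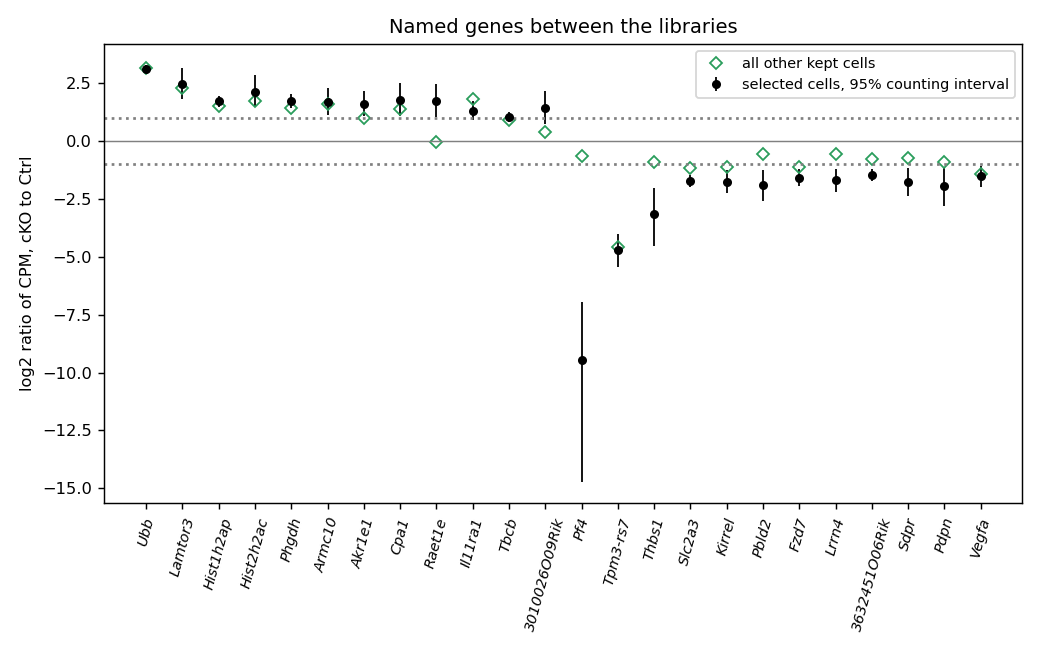
Log2 ratio of CPM, cKO to Ctrl, for the 24 named genes in the Hand1 and Msx2 cells (black, 95% counting intervals) and in all other kept cells (green diamonds). Dotted lines mark 2-fold. Ubb and Tpm3-rs7 lie at the same place in both sets of cells, Raet1e lies at 1.74 and −0.03, and Pf4 lies far below the rest because 863 of its 870 UMIs were in 1 cell.

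The BMP pathway was read by role. Of the ligands, 3 of 7 were measured and none passed 2-fold, against 0.36% and 1.71% of all genes, with a median log2 ratio of −0.50. Bmp5 stood at 86.4 CPM (76.9 to 96.8) and 49.6 CPM (41.6 to 58.6), labelled Ctrl and cKO in that order, for a log2 ratio of −0.80 (−1.10 to −0.51), and Bmp4 had −0.50 (−0.73 to −0.28). Both had ratios of like size in all other kept cells, −0.74 and −0.44. Of the receptors, 4 of 6 were measured, none past 2-fold, with a median of −0.70. Bmpr1a had −0.73 (−0.99 to −0.47), Bmpr2 −0.86 (−1.24 to −0.49) and Acvr2b 0.32 (−0.03 to 0.68). Of the response genes, 7 outside the rule were measured, all below 0 and none past 2-fold. Their median was −0.54, against −0.07 over all genes measured. Id1, an inhibitor of helix-loop-helix factors that BMP induces, stood at 556 and 515 CPM, and Id2 at 698 and 456 CPM.

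Msx1 was lower in the library labelled cKO in both sexes, with a log2 ratio of −0.80 (−1.06 to −0.54) in all cells, −0.46 with Xist only and −0.98 with Y-linked UMIs only. Wnt ligands were measured for 2 of 8 genes. Wnt5a, a ligand of planar polarity signalling, stood at 43.4 and 18.7 CPM, for a log2 ratio of −1.22 (−1.70 to −0.75). It was −1.90 with Xist only and −0.06 with Y-linked UMIs only. Wnt5a was lower in the library labelled cKO in other cells too. It stood at 38.2 and 9.04 CPM in the neighbours without Dkk1 and Rgs5, 119.6 and 28.7 CPM in the Isl1 and Tbx1 cells and 31.8 and 8.32 CPM in endothelial cells. Wnt2 stood at 109 and 125 CPM, a ratio of 0.20 (−0.01 to 0.41). Of the 6 measured Wnt receptors only Fzd7 passed 2-fold, on the lower side, where 1.71% of all genes lay. Of the 4 measured inhibitors only Dkk2 did, at 50.3 and 21.6 CPM, a ratio of −1.22 (−1.67 to −0.79). Of the 3 measured Wnt targets Lef1, a transcription factor, had −0.49 (−0.75 to −0.24). Wnt6, a ligand of surface ectoderm listed here under epithelium, stood at 28.4 CPM (23.1 to 34.6) and 9.34 CPM (6.10 to 13.7), a ratio of −1.61, and at 2.13 and 0.746 CPM in all other cells. In the Hand1 and Msx2 cells the epithelial gene Epcam stood at 4.02 and 2.87 CPM, while Cdh1 was at 0.

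All genes measured had a median of −0.07, and 17 of 21 lists drawn had medians below 0. The Hedgehog list had a median of −0.83 over 6 measured genes, all of them below 0, with 1 past 2-fold on the lower side, where 1.71% of all genes lay. Gli2, a transcription factor of the pathway, stood at 28.1 and 11.9 CPM, a ratio of −1.25 (−1.86 to −0.67), Ptch1, the receptor, had −0.93 (−1.32 to −0.55) and Gas1 −0.96 (−1.16 to −0.75). In all other kept cells these were −1.02, −0.78 and −0.53. The FGF response list had 4 measured genes, none past 2-fold, with a median of −0.61, and Spry2, a feedback inhibitor, had −0.73 (−1.05 to −0.42). Among 11 measured genes of guidance and adhesion, Epha3 and Alcam were past 2-fold lower, against 1.71% of all genes, and the median was −0.59. Epha3 stood at 22.4 CPM (17.7 to 28.0) in 47 cells and 8.26 CPM (5.24 to 12.4) in 22 cells, a ratio of −1.44 (−2.18 to −0.75). It was −1.58 with Xist only, −2.28 with Y-linked UMIs only and −1.85 in all other kept cells.

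Matrix genes were measured for 19 of 22, with 3 past 2-fold, all lower in the library labelled cKO, against 1.71% of all genes, and a median of −0.43. Fn1, which encodes fibronectin, stood at 401 and 178 CPM and was found in 157 and 116 cells, a ratio of −1.17 (−1.32 to −1.03). Tnc, tenascin C, stood at 79.2 and 32.0 CPM, a ratio of −1.31 (−1.67 to −0.96). Both directions held in both sexes, at −1.28 and −1.06 for Fn1 and −1.40 and −1.10 for Tnc, and in all other kept cells, at −1.22 and −0.95. The third was Postn, which rested on few cells and went in opposite directions in the sexes. Fbn1, a microfibril protein, had −0.97 (−1.31 to −0.63), while Has2, the hyaluronan synthase, had 0.66 (0.26 to 1.06).

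Transcription factors were read in 3 lists. Of 9 measured heart field factors and 13 measured lateral plate factors none passed 2-fold, against 0.36% of all genes higher and 1.71% lower, with medians of −0.34 and −0.27. The T-box list had 2 measured genes, neither past 2-fold, and a median of −0.62. Isl1 had −0.54 (−0.80 to −0.28), and −0.09 without presumed doublets. Mef2c had −0.43 (−0.71 to −0.16), Gata6 −0.43 (−0.61 to −0.24), Hand2 −0.34 (−0.54 to −0.14), Prrx1 −0.36 (−0.54 to −0.18) and Twist1 0.08 (−0.03 to 0.18). Tbx5, a T-box factor of heart and forelimb, stood at 40.5 and 24.4 CPM, a ratio of −0.73 (−1.17 to −0.30), lower in both sexes. Wt1 of the epicardium and mesothelium stood at 23.5 and 9.70 CPM, a ratio of −1.28 (−1.96 to −0.64), and Upk3b, a mesothelial membrane protein, at 22.7 and 9.34 CPM, also −1.28. Both were lower in both sexes, and they had −0.52 and 0.05 in all other kept cells. Among the neighbours without Dkk1 and Rgs5 they had −0.30 (−0.85 to 0.27) and 0.11 (−0.47 to 0.71). Among the neighbours with Hoxc4 or Hoxc5 Wt1 had 0.04 (−1.05 to 1.12), while Upk3b stood at 27.4 and 1.58 CPM, a ratio of −4.12 (−7.21 to −2.18). They belong to the epicardium list of 7 genes, which summed to 88.1 and 61.4 CPM and had 3 measured genes. The third, Aldh1a2, an enzyme of retinoic acid synthesis, stood at 16.4 and 22.6 CPM, a ratio of 0.47 (−0.07 to 1.01), but had −0.74 in cells with Xist only, −2.69 in cells with Y-linked UMIs only and −0.35 without cells with reads of both sexes.

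**Figure D5:**
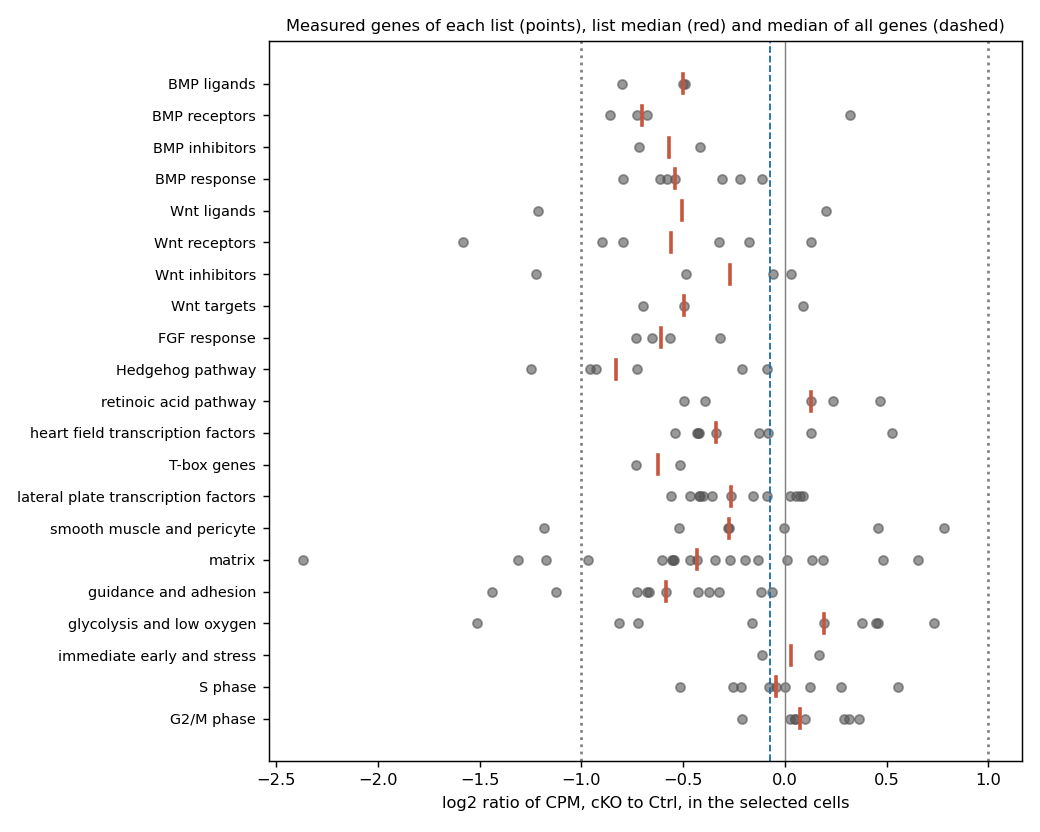
Log2 ratio of CPM, cKO to Ctrl, of each measured gene of 21 lists of pathways and gene functions in the Hand1 and Msx2 cells (grey points), with the list's median (red bar) and the median of all genes measured (blue dashed line, −0.07). Dotted lines mark 2-fold. Medians lie above 0 for 4 lists, glycolysis and low oxygen (0.19), retinoic acid pathway (0.13), G2/M phase (0.08) and immediate early and stress (0.03), and between −0.83 and −0.04 for the other 17. Other lists, such as those of cell types and of Hox genes, are not drawn.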

How the data were processed

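The authors aligned the reads to mm10 and counted UMIs with Cell Ranger 3.1.0, and the deposited values are raw counts per gene (27998) and cell barcode called as a cell. Of 7418 and 10281 cells, 411 and 508 failed the filters given above. The rule, members and gene lists were chosen with earlier results of these data known. UMIs were summed over cells and divided by their total (CPM). Sums carry exact Poisson intervals, ratios the exact conditional interval, shares the Clopper-Pearson interval and differences of shares the Newcombe interval. Genes the rule read, Xist, Tsix and Y-linked, haemoglobin, mitochondrial, ribosomal protein and Gm genes were left out of counts of genes. Named genes were the 20 with the largest smaller ratio to other cells at 50 CPM or more in both libraries, and the 12 in each direction whose interval bound lay farthest from 0 and that kept their direction in cells of either sex. Scrublet (scanpy 1.11.5) scored doublets. Its automatic threshold called 0% and 7.81%, so the highest scores were taken as presumed doublets at 0.8% per 1000 cells, kept in the main values and removed in an alternative. Other alternatives varied the rule, filters, scaling and minimum level, and 3 of them, removal of cells with reads of both sexes, of the top cell of each gene, and of presumed doublets from the Isl1 split, were chosen after seeing the data. The steps were tested on simulated counts. Python 3.11.15, numpy 2.4.6 and scipy 1.17.1 were used.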

Additional observations from a re-analysis of the deposited data

Results flagged for a closer look

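Postn, which encodes the matrix protein periostin, went in opposite directions in cells of the sexes. In cells with Xist only it had 4 UMIs in the library labelled Ctrl and 12 in the library labelled cKO, at 2.80 and 10.0 CPM, for a log2 ratio of 1.84. In cells with Y-linked UMIs only it had 43 and 0 UMIs, at 34.6 CPM against a limit of 3 counts over those cells, and was at least 5.78-fold lower in the library labelled cKO. The log2 ratios differed by at least 4.37 with the floor of 3 counts in place of 0. The difference was not tested. Over all Hand1 and Msx2 cells Postn had 168 UMIs in 15 cells and 26 UMIs in 13 cells, for a log2 ratio of −2.37 (−3.02 to −1.77), and 52 of the 168 lay in 1 cell.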

How the results depend on the processing

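No paired analysis was possible because each group has 1 library. For the same reason no replicate could be left out. The share of Hand1 and Msx2 cells stayed lower in the library labelled cKO under every alternative run. In points it moved most in cells thinned to 5000 UMIs, to −0.236, where few cells met the rule. As a ratio of Ctrl to cKO it was 1.69, and 1.88 in thinned cells. That ratio ran from 1.35 without the condition on Dkk1 and Rgs5 to 2.41 in cells with Y-linked UMIs only. The counts of genes past 2-fold in the Hand1 and Msx2 cells (121, of which 21 higher and 100 lower) depended on the settings, in the same order as follows. Asking for 2 UMIs of Hand1 and of Msx2 gave 225 (42 and 183), cells with Xist only 284 (59 and 225), and cells with Y-linked UMIs only 393 (76 and 317), each over fewer cells. A minimum of 50 CPM gave 37 (6 and 31), of 10 CPM 270 (45 and 225), and none but 30 UMIs 391 (70 and 321). The rule on thinned cells gave 44 higher and 55 lower of 1534 genes measured (2.87% and 3.59%, against 0.36% and 1.71% of 5831), with 3 and 3 of them among the 21 and 100. Scaling by the median ratio gave 64 lower. Against other cells (114, of which 73 higher and 41 lower), the neighbours without Dkk1 and Rgs5 as reference gave 21 (5 and 16), thinned cells 252 (137 and 115), and a minimum of 50 CPM 43 (31 and 12), while removal of presumed doublets gave 68 lower. On thinned cells 3010026O09Rik (−0.57) and Thbs1 (0.43) changed direction, with intervals that cross 0. Of 299 values of single named genes under alternatives, 257 stayed within the counting interval of the main value, 40 left it without changing sign, and these 2 changed sign. Other causes were not tested. With 1 library per group the limits are those of counting and of what a pair of embryos can show.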

Other observations

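Cell cycle genes of the Hand1 and Msx2 cells stood near the median of all genes. All 9 measured S phase genes lay within 2-fold between the libraries, with Tyms, an enzyme of thymidylate synthesis, at 0.55 (0.38 to 0.73) and Mcm6, a helicase subunit, at −0.52 (−0.73 to −0.31). All 8 measured G2/M genes did as well, with Top2a, a topoisomerase, at −0.21 (−0.31 to −0.11) and Cdk1, the mitotic kinase, at 0.29 (0.16 to 0.43). Of 9 measured glycolysis and low oxygen genes, 1 was past 2-fold, Vegfa, on the lower side, where 1.71% of all genes lay. The enzyme Eno1 stood at 459 and 764 CPM, labelled Ctrl and cKO in that order, and the glucose transporter Slc2a1 at 206 and 117 CPM.

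Hox genes summed to 372 and 316 CPM in the Hand1 and Msx2 cells against 520 and 387 CPM elsewhere, with Hoxc4 and Hoxc5 at 0 by the rule. Of the 39 Hox genes listed, 18 and 22 had no UMI, the genes read by the rule included. Hoxb2 was found in 147 of 164 and 121 of 135 cells, at 158 and 150 CPM, and Hoxb4 stood at 58.9 and 45.6 CPM. Hoxc8 had 19 UMIs in the library labelled Ctrl, 16 of them in 1 cell. Some genes of other lists were higher in the library labelled cKO. Meox1, a factor of paraxial mesoderm, stood at 8.33 and 26.9 CPM, for a log2 ratio of 1.69 (1.06 to 2.37), with 2.63 in cells with Xist only and −1.28 in cells with Y-linked UMIs only. Foxd1, a forkhead factor, stood at 11.8 and 39.5 CPM, a ratio of 1.75 (1.22 to 2.30), in 14 and 23 cells. Foxd1 also stood at 13.0 and 41.4 CPM in the neighbours without Dkk1 and Rgs5 and at 29.9 and 59.6 CPM in the Isl1 and Tbx1 cells. In muscle-rich cells it stood at 1.80 and 1.18 CPM. Meox1 stood at 39.3 and 112 CPM in the Isl1 and Tbx1 cells and at 20.4 and 20.5 CPM in the neighbours with Hoxc4 or Hoxc5.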
